A study of Arabidopsis thaliana with 39 samples.

Results

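The transcript response of wild-type (WT) Arabidopsis thaliana seedlings to methylglyoxal (MG) was read from 6 RNA-seq libraries, among 36 RNA libraries of the series. 3 libraries came from WT seedlings exposed to 200 µM MG for 12 h, and 3 came from WT seedlings whose treatment label reads none (mock). All seedlings were 5 days old, had grown on solid MS-based medium and were taken whole, so that root and shoot RNA were mixed. The labels name no natural accession for the wild type, and they do not say whether mock seedlings were moved or collected in step with the treated ones. 4 other sets served for comparison. They were WT seedlings given 100 mM NaCl for 12 h, and MG and mock seedlings of 3 further genotypes: the mutant glyI2, and lines #1 and #5 of 35S::GLYI2 35S::GLYII4 (OE1 and OE5), each a single numbered line with both transgenes under the constitutive 35S promoter. Every gene in the deposited files belonged to the comparison: 32678 genes were listed, and 20748 of them passed a filter on low counts across all 36 libraries and were tested.

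MG is a reactive dicarbonyl that forms mainly from triose phosphates during glycolysis and modifies arginine, lysine and cysteine residues of proteins. It reacts spontaneously with glutathione, and the resulting hemithioacetal is converted by glyoxalase I to S-D-lactoylglutathione and by glyoxalase II to D-lactate, which returns glutathione. DJ-1 proteins can act on MG without glutathione, and aldo-keto reductases and aldehyde dehydrogenases remove carbonyls by reduction or oxidation. In plants MG accumulates under salt, drought and heat, and it can act both as a toxin and as a signal.

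Total counts in the 6 libraries lay between 21313666 and 21909361, and between 21024878 and 22383131 over all 36. The labels do not say that replicates came from separate cultures, so a p-value here reflects only how far libraries scatter within groups, and that scatter may be technical. It was estimated over all 36 RNA libraries in 12 groups, not from the 6 compared libraries alone. The WT MG libraries differed among themselves. The rank correlation between gene length and the log2 deviation from the mean of the 6 libraries was 0.05, -0.287 and 0.356 in WT MG libraries, against 0.092, 0.081 and -0.023 in WT mock libraries, so that WT MG 2 and WT MG 3 lay outside the WT mock values on opposite sides. WT MG 2 also had a scaling factor of 0.759. 7 libraries of other groups, replicate 3 of WT NaCl and of the mock and NaCl groups of glyI2, OE1 and OE5, were low in the clock gene CCA1. In a principal component analysis of the 9 WT libraries, the 3 WT MG libraries had scores of -57.1, -74.1 and -49.3 on the first component, which held 39.3% of the variance, against 32.1, 30.9 and 31.7 for WT mock. On the second component, with 27% of the variance, the scores were 21.5, -39.3 and 39.2 for WT MG, against 26.7, 20.4 and 42 for WT mock, with only WT MG 2 outside the WT mock values. None of the 279 organelle genes had a read. Levels below are CPM (counts scaled to library size), adjusted by the trimmed mean of M values. A fold change is the log2 ratio of WT MG to WT mock ± its standard error, with 3 libraries a group. That error was derived from the F statistic of the fit over all 36 libraries. A gene is called raised or lowered where the adjusted p of edgeR's quasi-likelihood test is under 0.05. The gene lists below were chosen with earlier results of these data known, so their shares called are descriptive only.

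MG changed 2215 genes in WT seedlings, 10.7% of the genes tested. Of these 1331 were raised (6.42%) and 884 were lowered (4.26%). Genes that were raised took 6.75%, 6.03% and 6.98% of all counts in WT MG libraries, against 2.59%, 2.56% and 2.63% in WT mock libraries. Genes that were lowered took 0.458%, 0.362% and 0.474% in WT MG libraries, against 1.55%, 1.35% and 1.48% in WT mock libraries. The median log2 change was 1.54 among raised genes and -2.36 among lowered genes, and 0 over all genes tested. Changes of at least 10-fold were called for 203 raised and 289 lowered genes, and 50 lowered genes had no read in any WT MG library. Without WT MG 2 the counts were 1073 raised and 742 lowered, and without WT MG 3 they were 1287 raised and 732 lowered. Leaving out any 1 of the 6 libraries gave between 1721 and 2019 called genes. The values of the 3 WT MG and 3 WT mock libraries did not overlap for 2174 of the called genes, where 26% of all genes tested had no overlap.

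The genes with the largest increases were nearly silent in WT mock seedlings. Only genes without overlap between WT MG and WT mock libraries were eligible as largest changes. Their separation below was therefore a condition of choice. AT5G57510 had 15.3, 11.8 and 8.36 CPM in WT MG libraries, against 0.0458, 0 and 0 CPM in WT mock libraries (log2 9.16 ± 0.72, adjusted p = 2.31e-10). CYP82C2, a cytochrome P450 of the pathway to cyanogenic indole compounds, had 24.6, 19.5 and 8.11 CPM in WT MG libraries, against 0.0458, 0.0472 and 0 CPM in WT mock libraries (log2 8.93 ± 0.92, adjusted p = 1.11e-07). The calmodulin-like gene CML37 had 50.9, 60.7 and 53.1 CPM in WT MG libraries, against 0.137, 0.283 and 0.127 CPM in WT mock libraries (log2 8.21 ± 0.46, adjusted p = 1.39e-12). For each of the 3 genes the lowest WT MG library was far above all WT mock libraries. HSP23.6, a small heat shock protein of mitochondria, had 11.7, 24.8 and 45.1 CPM in WT MG libraries, against 0.137, 0.33 and 0.211 CPM in WT mock libraries (log2 6.88 ± 1.24, adjusted p = 0.000175), and NUDT24, a Nudix hydrolase, had 3.57, 17.43 and 1.83 CPM in WT MG libraries, against 0.0458, 0.0944 and 0 CPM in WT mock libraries (log2 7.21 ± 1.09, adjusted p = 1.58e-05). In both the groups did not overlap, but the WT MG libraries differed widely among themselves, with WT MG 3 high for HSP23.6 and WT MG 2 high for NUDT24. The largest decreases included genes for cell wall proteins. The extensin gene EXT13 had 0 CPM in all 3 WT MG libraries, against 9.29, 20 and 4.85 CPM in WT mock libraries (log2 -10.96 ± 1.28, adjusted p = 4.19e-07), so that it was at least 74.9-fold lower when the WT MG level is set to 3 counts per library. EXPA17, an expansin, had 0 CPM in all 3 WT MG libraries, against 10, 9.48 and 11.1 CPM in WT mock libraries and was at least 67.1-fold lower on the same floor (log2 -10.81 ± 1.27, adjusted p = 4.60e-07). AT2G47540 had 0 CPM in all 3 WT MG libraries, against 8.19, 8.21 and 8.15 CPM in WT mock libraries, and its bound was 53.9-fold (log2 -10.49 ± 0.89, adjusted p = 2.10e-09). All 3 genes were read in each WT mock library and in no WT MG library.

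Genes of the glyoxalase pathway were called at about the share of all genes tested, of which 6.42% were raised and 4.26% lowered. Of 22 glyoxalase, DJ-1 and D-lactate dehydrogenase genes tested, 2 were raised and none was lowered, and their median log2 change was 0.09. None of the 15 glyoxalase I and glyoxalase II family genes was called by edgeR, with 2 at an unadjusted p under 0.05, and 1 was called by DESeq2. AT1G08110, listed as GLYI2 and the gene that the mutant's label names, had 61.4, 46.6 and 68.7 CPM in WT MG libraries, against 55, 58.2 and 70.6 CPM in WT mock libraries (log2 -0.06 ± 0.22, adjusted p = 0.963). Its level in the mutant was 7.96 ± 0.0236 CPM in glyI2 MG libraries and 7.93 ± 2.25 CPM in glyI2 mock libraries (SD, n = 3 each), far under the WT values. AT1G67280, listed as a glyoxalase I gene, had 217, 244 and 194 CPM in WT MG libraries, against 177, 199.6 and 171 CPM in WT mock libraries (log2 0.26 ± 0.13, adjusted p = 0.311), and GLX1 had 222, 236 and 203 CPM in WT MG libraries, against 244, 223 and 177 CPM in WT mock libraries (log2 0.04 ± 0.21, adjusted p = 0.975). WT MG and WT mock libraries overlapped for all 3. The glyoxalase II family gene GLX2-1 had 12.1, 9.76 and 13.2 CPM in WT MG libraries, against 10.1, 9.67 and 12.5 CPM in WT mock libraries (log2 0.12 ± 0.25, adjusted p = 0.922), and the D-lactate dehydrogenase locus AT5G06580 had 20, 16.4 and 21.9 CPM in WT MG libraries, against 17.9, 18.8 and 21.4 CPM in WT mock libraries (log2 0.01 ± 0.17, adjusted p = 0.998). The most negative value was that of GLYI4 (log2 -1.2 ± 0.4, adjusted p = 0.0547), which missed the threshold. It was lowered in DESeq2 (adjusted p = 0.0411) and without WT mock 2 (adjusted p = 0.0457). The list also held 1 lowered gene with the replicate number as a block, and with only the compared groups, with or without that block.

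Both raised members were DJ-1 genes, whose products can act on MG without glutathione. DJ1E had 134, 160.1 and 110.0 CPM in WT MG libraries, against 39.5, 40.8 and 27.3 CPM in WT mock libraries (log2 1.91 ± 0.18, adjusted p = 4.68e-09). Its lowest WT MG library was above the highest WT mock library by more than the spread within either group. DJ1A had 688, 630.4 and 668 CPM in WT MG libraries, against 439.9, 436 and 481 CPM in WT mock libraries (log2 0.55 ± 0.14, adjusted p = 0.00865), again with no overlap, but its call was lost when only the compared groups entered the fit. Enzymes that supply or divert triose phosphates were also called at about the share of all genes tested (10.7%). Of 17 genes of triose phosphate metabolism and glycolysis 2 were raised and none lowered, with a median log2 change of 0.26. The phosphofructokinase gene PFK3 was the clearer of them (7.69 ± 0.84 CPM in WT MG libraries and 2.22 ± 0.0236 CPM in WT mock libraries, SD, n = 3 each; log2 1.79 ± 0.25, adjusted p = 4.89e-06). The other, FBA6, lost its call without WT mock 1, WT mock 2 or WT MG 2, which left 1 raised gene in each case. The cytosolic glyceraldehyde-3-phosphate dehydrogenase gene GAPC1 had a log2 change of 0.83 ± 0.3 and missed the threshold (adjusted p = 0.073).

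Enzymes that reduce or oxidise other carbonyls were raised in part. Of 18 such genes 4 were raised and none lowered, with a median of 0.24. OPR1, a reductase of the 12-oxophytodienoate reductase family, had 999.5, 878 and 927 CPM in WT MG libraries, against 260.0, 211 and 198 CPM in WT mock libraries (log2 2.07 ± 0.28, adjusted p = 2.29e-06). Its relative OPR2 was raised as well (log2 1.53 ± 0.19), as were the aldehyde dehydrogenase gene ALDH3H1 (0.86 ± 0.12) and the alkenal reductase gene AER (1 ± 0.19). The aldo-keto reductases AKR4C8, AKR4C9 and AKR4C10 were not called, at log2 0.35 ± 0.15, 1.63 ± 0.64 and -0.04 ± 0.21.

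Genes known to respond to reactive electrophiles rose together. Of 19 cytochromes P450, transporters and regulators on that list, 12 were raised and none was lowered, and the median log2 change was 1.57. CYP81D8, a cytochrome P450 widely used as a marker of this response, had 155, 191 and 203 CPM in WT MG libraries, against 4.07, 4.67 and 3.76 CPM in WT mock libraries (log2 5.46 ± 0.38, adjusted p = 4.21e-11). The auxin transporter gene ABCB4 had 236, 103 and 268 CPM in WT MG libraries, against 38.6, 36 and 33.6 CPM in WT mock libraries (log2 2.49 ± 0.36, adjusted p = 6.45e-06). For CYP81D8 the groups lay far apart, while for ABCB4 the library WT MG 2 was well under the other WT MG libraries and still above WT mock. AT2G04070, on the list as a multidrug and toxin extrusion transporter, had 25.9, 25 and 18 CPM in WT MG libraries, against 0, 0.0944 and 0.211 CPM in WT mock libraries (log2 7.7 ± 0.69, adjusted p = 2.47e-09), and AT2G04050 of the same list had a log2 change of 3.74 ± 0.55. The sterol desaturase gene CYP710A1 changed by 3.04 ± 0.44. CYP81D11, another cytochrome P450 of the list, was at 77.6 ± 17.1 CPM in WT MG libraries and 77.1 ± 18 CPM in WT mock libraries (SD, n = 3 each) and was not called.

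Conjugating enzymes were raised in part. Of 32 glutathione transferase genes, which couple glutathione to electrophiles, 16 were raised and 2 lowered, with a median of 1.05. The 23 tau-class genes held 10 of the raised and both lowered members, and the 9 phi-class genes held 6 raised members. GSTU25 had 749, 551 and 625 CPM in WT MG libraries, against 26.3, 21.1 and 18.5 CPM in WT mock libraries (log2 4.87 ± 0.36, adjusted p = 7.84e-11). GSTU24 had 453, 345 and 399 CPM in WT MG libraries, against 36.8, 26.4 and 28.5 CPM in WT mock libraries (log2 3.71 ± 0.29, adjusted p = 2.31e-10). In both genes the 3 libraries of each group stayed close to each other and the groups lay far apart. GSTU11 (5 ± 0.53), GSTF7 (3.01 ± 0.27) and GSTU4 (2.98 ± 0.32) were raised too. Several of these genes sit in tandem arrays of similar sequence, and the sources used here do not say how reads that match more than 1 copy were counted, so values of single copies are less certain than that of the family. Of 14 UDP-glycosyltransferase genes linked to stress 8 were raised and none lowered, with a median of 1.73. UGT74E2, which glucosylates indole-3-butyric acid, had 228, 162 and 213 CPM in WT MG libraries, against 6.41, 5.1 and 6.33 CPM in WT mock libraries (log2 5.08 ± 0.38, adjusted p = 1.39e-10). The other raised genes included UGT73B4 (2.68 ± 0.27), UGT73B5 (2.34 ± 0.27), UGT75B1 (2 ± 0.26) and UGT76B1 (1.6 ± 0.23).

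**Figure D1:**
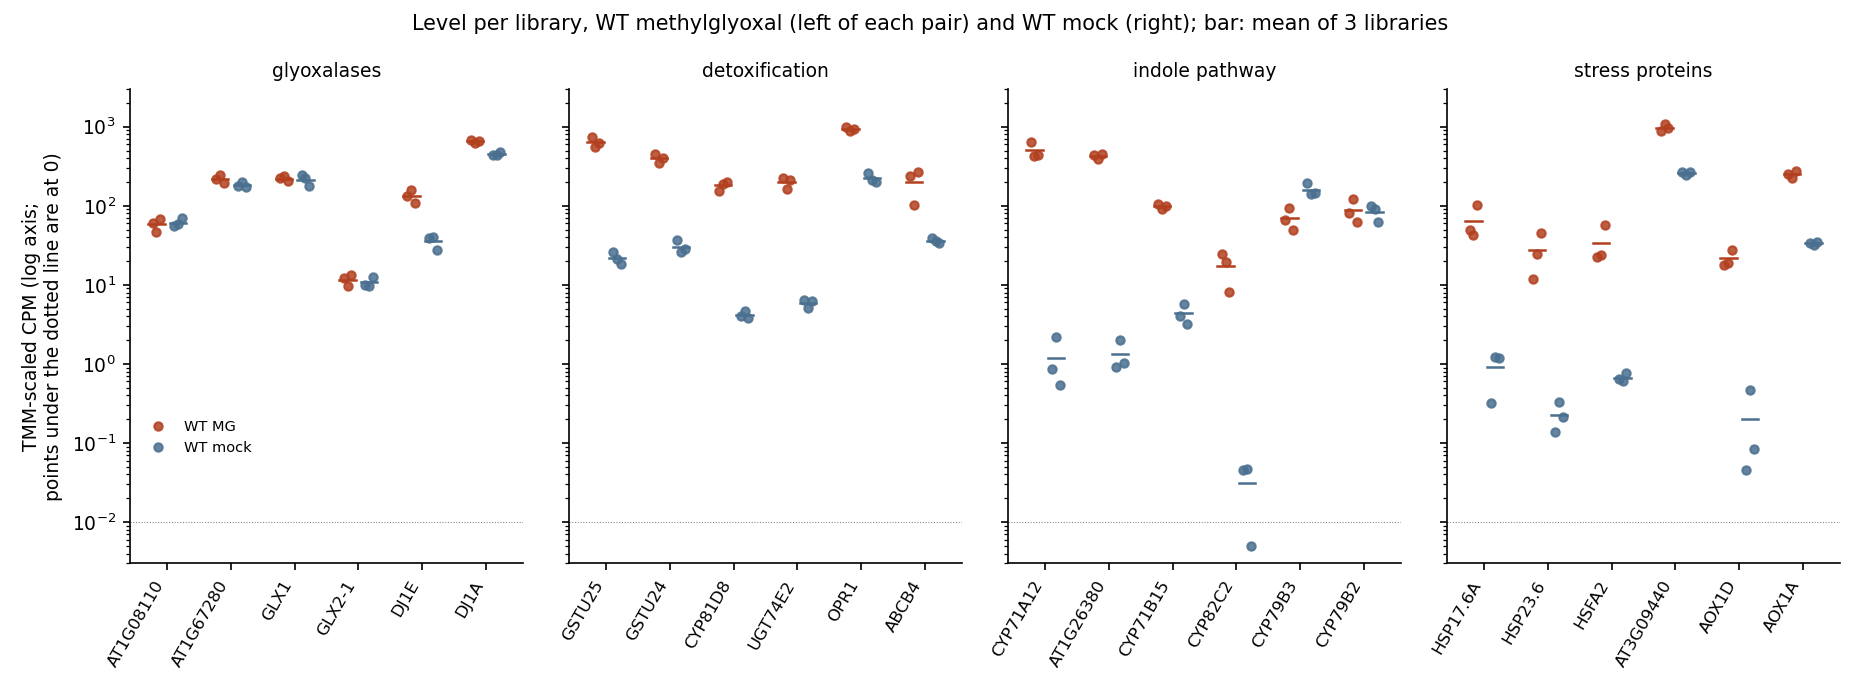
Level of 24 genes in each library, in CPM on a log axis, with the 3 WT MG libraries left of the 3 WT mock libraries for each gene and a bar at each mean. The glyoxalase I and II genes overlap between the groups, whereas GSTU25 (551 to 749 CPM in WT MG, 18.5 to 26.3 CPM in WT mock), CYP71A12 and HSP17.6A stand apart.

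Sulfate assimilation and glutathione turnover responded at some steps. Of 15 genes 9 were raised and none lowered, with a median of 0.94. LSU1, a small protein that marks sulfur limitation, had 282, 299 and 247 CPM in WT MG libraries, against 4.67, 9.44 and 4.69 CPM in WT mock libraries (log2 5.46 ± 0.75, adjusted p = 3.28e-06). SDI1, a repressor of glucosinolate synthesis that is induced by sulfur deficiency, was raised by 3.77 ± 0.54, and GGCT2;1, a γ-glutamyl cyclotransferase that breaks down glutathione, by 2.99 ± 0.36. Raised at the steps of sulfate reduction and cysteine synthesis were the APS reductase genes APR1 (1.78 ± 0.23) and APR3 (1.7 ± 0.2) and the serine acetyltransferase gene SERAT2;1 (1.57 ± 0.2). The genes for the enzymes that make glutathione were not called: GSH1 was at 223 ± 8.96 CPM in WT MG libraries and 227 ± 21.7 CPM in WT mock libraries, and GSH2 at 77.3 ± 5.28 CPM in WT MG libraries and 70.7 ± 4.03 CPM in WT mock libraries (SD, n = 3 each). The glutathione reductase gene GR1 had a log2 change of 0.47 ± 0.26 and missed the threshold (adjusted p = 0.371). Of 17 antioxidant genes 2 were raised and 1 was lowered, with a median of 0.20. The dehydroascorbate reductase gene DHAR2 had 245, 320.1 and 194 CPM in WT MG libraries, against 71.5, 67.2 and 68.8 CPM in WT mock libraries (log2 1.87 ± 0.38, adjusted p = 0.000736), and the monodehydroascorbate reductase gene MDAR3 was lowered (log2 -1.66 ± 0.31, adjusted p = 0.000311). The other raised gene, GPX6, lost its call when any of WT mock 1, WT mock 2, WT mock 3, WT MG 1 or WT MG 3 was left out, which left 1 raised gene.

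Genes of indole-derived defence compounds were called in both directions. Of 16 genes 6 were raised and 2 lowered, with a median of 0.60. CYP71A12, which makes indole-3-acetonitrile from indole-3-acetaldoxime, had 644, 426 and 441 CPM in WT MG libraries, against 0.869, 2.17 and 0.549 CPM in WT mock libraries (log2 8.72 ± 0.68, adjusted p = 2.31e-10). Per transcript length it was at 279.8 FPKM in WT MG libraries, rank 398 by that measure among all genes in the files, and 0.713 FPKM in WT mock libraries, rank 18387. CYP71B15, known as PAD3, which carries out the last step of camalexin synthesis, had 106, 91 and 98.6 CPM in WT MG libraries, against 4.07, 5.76 and 3.21 CPM in WT mock libraries (log2 4.51 ± 0.33, adjusted p = 6.95e-11). AT1G26380, of the same list, had 445, 386 and 454 CPM in WT MG libraries, against 0.915, 2.03 and 1.01 CPM in WT mock libraries (log2 8.34 ± 0.54, adjusted p = 1.19e-11). In these 3 genes every WT MG library was far above every WT mock library. Loci close to AT1G26380 were also among the 15 largest increases: AT1G26390 had 128, 137 and 116 CPM in WT MG libraries, against 0.32, 0.708 and 0.971 CPM in WT mock libraries (log2 7.55 ± 0.94, adjusted p = 6.77e-07), and AT1G26410 changed by 7.09 ± 0.86. CYP81F2, which modifies indole glucosinolates, was raised by 3.57 ± 0.39. CYP79B3 and CYP79B2 both code for the step from tryptophan to indole-3-acetaldoxime. CYP79B3 had 65.7, 93.8 and 49.8 CPM in WT MG libraries, against 193, 142 and 146 CPM in WT mock libraries (log2 -1.2 ± 0.23, adjusted p = 0.000464), while CYP79B2 was at 87.6 ± 30 CPM in WT MG libraries and 84.3 ± 18.8 CPM in WT mock libraries (SD, n = 3 each; adjusted p = 0.966) and was not called. Whether their changes differ was not tested. The second lowered gene, CYP82C4, lost its call without WT mock 1 or any 1 WT MG library, leaving 1 lowered gene. CYP82C4 also stands among the coumarin genes of the iron list below and is counted in both lists. Genes of aliphatic glucosinolates held 0 raised and 1 lowered among 15, and that 1 was lost without WT mock 1, WT mock 2, WT MG 1 or WT MG 2.

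Heat shock genes rose broadly. Of 38 genes 23 were raised and none lowered, with a median log2 change of 2.04. The small heat shock proteins, which hold unfolded proteins in solution, had 10 of 13 raised with a median of 3.95. Among the large chaperones 8 of 14 were raised with a median of 1.95, and among the transcription factors 5 of 11. HSP17.6A had 48.8, 42.8 and 104 CPM in WT MG libraries, against 0.32, 1.23 and 1.18 CPM in WT mock libraries (log2 6.15 ± 0.87, adjusted p = 6.01e-06). HSFA2, a heat stress transcription factor that is itself heat-induced, had 22.5, 23.9 and 56.4 CPM in WT MG libraries, against 0.641, 0.613 and 0.76 CPM in WT mock libraries (log2 5.66 ± 0.67, adjusted p = 3.27e-07). For both genes WT MG 3 was well above the other WT MG libraries, and all 3 were above WT mock. AT3G09440, on the list as a cytosolic HSP70, had 889, 1074 and 951 CPM in WT MG libraries, against 267, 247 and 268 CPM in WT mock libraries (log2 1.9 ± 0.23, adjusted p = 4.03e-07). DREB2A, an activator that acts upstream in heat and drought responses, was raised by 3.66 ± 0.47. The constitutive regulators HSFA1A (-0.09 ± 0.47) and HSFA1B (-0.3 ± 0.4) were not called.

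Fewer genes of other arms of protein quality control were called. Of 13 genes for folding in the endoplasmic reticulum 2 were raised and 1 was lowered, with a median of -0.43. The raised pair were BZIP60 (log2 1.41 ± 0.28, adjusted p = 0.000511) and BZIP28 (log2 0.84 ± 0.18, adjusted p = 0.00159), transcription factors of the unfolded protein response, whereas the chaperone genes BIP1 (-0.31 ± 0.22) and BIP2 (-0.5 ± 0.22) were not called. The lowered gene, CRT1B, lost its call without WT mock 1, WT mock 2, WT MG 1 or WT MG 3, whereas 2 genes were lowered without WT MG 2 and 3 in DESeq2. Of 20 proteasome and autophagy genes 6 were raised and none lowered, with a median of 0.49, and 3 were raised without WT mock 3. NAC053 (log2 1.4 ± 0.23, adjusted p = 3.74e-05) and ANAC078 (log2 0.67 ± 0.14, adjusted p = 0.00087), regulators of proteasome subunit genes, and the autophagy gene ATG18A (log2 1.4 ± 0.31, adjusted p = 0.00162) were among them.

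Genes that report stress in mitochondria rose together. Of 12 mitochondrial stress genes 9 were raised and none lowered, with a median of 1.72. AOX1A, an alternative oxidase that bypasses part of the respiratory chain, had 251, 224 and 272 CPM in WT MG libraries, against 33.8, 31.8 and 34.9 CPM in WT mock libraries (log2 2.89 ± 0.27, adjusted p = 4.68e-09). AOX1D, another alternative oxidase, had 17.9, 19 and 27.8 CPM in WT MG libraries, against 0.0458, 0.472 and 0.0844 CPM in WT mock libraries (log2 6.74 ± 0.64, adjusted p = 7.51e-09). Neither gene showed any overlap, and the WT MG libraries lay close together. The outer membrane protein gene OM66 (3.33 ± 0.47), the NAC factor ANAC013 (1.84 ± 0.25) and the alternative NAD(P)H dehydrogenases NDA2 (1.51 ± 0.22) and NDB2 (1.6 ± 0.25) were raised, whereas NDA1 was not called (0.11 ± 0.93). 2 genes of fermentation were among those raised on another list. The pyruvate decarboxylase gene PDC1 had 54.3, 67.5 and 37.8 CPM in WT MG libraries, against 4.35, 2.88 and 2.74 CPM in WT mock libraries (log2 4 ± 0.34, adjusted p = 1.02e-09), and the alcohol dehydrogenase gene ADH1 had 35.1, 30 and 23.1 CPM in WT MG libraries, against 3.43, 2.74 and 3.12 CPM in WT mock libraries (log2 3.24 ± 0.29, adjusted p = 2.53e-09). These 2 stood with the dark-inducible gene DIN2 (5.98 ± 0.68) in a list of 15 sugar and starvation genes, of which 3 were raised and 2 lowered, with a median of -0.45. DIN2 differed among WT MG libraries, with 61.1, 9.89 and 68.1 CPM in WT MG libraries, against 0.549, 0.661 and 0.971 CPM in WT mock libraries. The count of lowered genes on that list was 0 without WT mock 3 or WT MG 2 or with only the compared groups, and 1 without WT mock 1 or WT MG 3.

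Among NADPH oxidases and calcium sensors 6 of 15 genes were raised and 1 was lowered, with a median of 0.84. RBOHD, the main oxidase of stress-induced superoxide release, had 89.3, 92.1 and 77.1 CPM in WT MG libraries, against 38.4, 43.8 and 26.7 CPM in WT mock libraries (log2 1.25 ± 0.23, adjusted p = 0.000284), and RBOHA was raised by 1.53 ± 0.34. The calmodulin-like genes CML38 (3.24 ± 0.77) and CML42 (1.55 ± 0.28) rose with CML37. The lowered oxidase gene RBOHB lost its call without WT mock 1 or WT MG 2. Among stress transcription factors 14 of 27 were raised and 1 was lowered, with a median of 1.5. ZAT12, a zinc finger factor of oxidative stress, had 236, 261 and 207 CPM in WT MG libraries, against 10.6, 10.1 and 12.4 CPM in WT mock libraries (log2 4.41 ± 0.37, adjusted p = 7.03e-10). JUB1, a NAC factor linked to stress tolerance and longevity, was raised by 4.74 ± 0.41, ZAT11 by 2.92 ± 0.34, WRKY25 by 2.19 ± 0.27, WRKY29 by 2.31 ± 0.37 and WRKY6 by 1.7 ± 0.2.

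A minority of the genes on each hormone list was called, where 6.42% of all genes tested were raised and 4.26% lowered. Of 24 ethylene genes 5 were raised and 2 lowered, with a median of 0.45. The ACC synthase genes, which set the rate of ethylene production, went both ways. ACS2 had 14.1, 9.46 and 16.9 CPM in WT MG libraries, against 1.33, 0.802 and 1.01 CPM in WT mock libraries (log2 3.68 ± 0.42, adjusted p = 1.68e-07), and ACS6 (2.42 ± 0.46) and ACS7 (2.2 ± 0.52) were raised, whereas ACS5 had 0 CPM in all 3 WT MG libraries, against 0.595, 0.566 and 0.549 CPM in WT mock libraries (log2 -6.66 ± 1.14, adjusted p = 0.000107), at least 3.75-fold lower on the 3-count floor. The response factors ERF6 (3.6 ± 0.61) and ERF5 (1.78 ± 0.47) rose. 1 ethylene gene in place of 2 was lowered without WT mock 1, 2 or 3 or without WT MG 2. Of 25 jasmonate genes 4 were raised and none lowered, with a median of 0.43, and 2 were raised without WT mock 1, WT mock 3 or WT MG 2, but 7 without the 7 libraries low in CCA1. CYP94B3, which inactivates jasmonoyl-isoleucine, had 106, 109.6 and 88 CPM in WT MG libraries, against 1.24, 2.03 and 2.2 CPM in WT mock libraries (log2 5.79 ± 0.45, adjusted p = 2.31e-10). Of 17 salicylic acid and defence genes 1 was raised and 1 lowered, with a median of 0.21. CBP60G, an activator of salicylic acid synthesis, rose (log2 2.09 ± 0.31, adjusted p = 9.99e-06), and DMR6, which hydroxylates salicylic acid, fell (log2 -1.14 ± 0.21, adjusted p = 0.000225). Without WT mock 1 a second gene of this list was raised.

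Most abscisic acid genes were not called, which also held for all genes tested, of which 6.42% were raised. Of 30 genes 4 were raised and none lowered, with a median of 0.20, and 2 were raised when WT mock 1, 2 or 3 or WT MG 2 was left out. CYP707A1, an enzyme that breaks down abscisic acid, was raised (15.8 ± 2.92 CPM in WT MG libraries and 3.51 ± 0.349 CPM in WT mock libraries, SD, n = 3 each; log2 2.17 ± 0.31, adjusted p = 5.46e-06). The phosphatase gene HAI2, a negative regulator of the pathway, had 1.47, 7.73 and 1.53 CPM in WT MG libraries, against 0.229, 0.283 and 0.0844 CPM in WT mock libraries (log2 4.13 ± 0.84, adjusted p = 0.000785), with WT MG 2 highest. Of 17 dehydration protein genes 2 were raised and none lowered, with a median of 0.77. The dehydrin gene LTI30 had 97.9, 66.2 and 77.2 CPM in WT MG libraries, against 24.5, 12.8 and 19 CPM in WT mock libraries (log2 2.1 ± 0.32, adjusted p = 2.05e-05), without overlap. The other, LEA14, lost its call when any library except WT MG 3 was left out, leaving 1. RD29A, a common reporter of dehydration and cold, was at 9.8 ± 3.66 CPM in WT MG libraries and 8.48 ± 3.25 CPM in WT mock libraries (SD, n = 3 each) and was not called. Of 11 osmolyte genes 2 were raised and 1 was lowered, but 0 were raised without WT mock 2, WT mock 3 or WT MG 2, and 0 were lowered without WT mock 1, WT MG 1 or WT MG 3.

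Several cytokinin genes were lowered. On a list of 16 genes of cytokinin, gibberellin and brassinosteroid 6 were lowered and 1 was raised, with a median of -0.30. ARR5, a type-A response regulator that cytokinin induces, had 2.71, 2.66 and 2.67 CPM in WT MG libraries, against 10.1, 8.26 and 10.1 CPM in WT mock libraries (log2 -1.82 ± 0.24, adjusted p = 1.31e-06). The 3 WT MG values were nearly equal and lay well under all WT mock values. ARR6 (-2.04 ± 0.31), ARR7 (-1.71 ± 0.33) and the cytokinin oxidase gene CKX4 (-1.67 ± 0.33) were lowered, and the gibberellin-inactivating gene GA2OX6 was raised (1.5 ± 0.21). Of 32 auxin genes 1 was raised and 3 were lowered, with a median of -0.06, and none of the 14 repressors and response factors was called by edgeR, with 1 at an unadjusted p under 0.05 and 1 called by DESeq2. The influx carrier LAX3 (log2 -0.94 ± 0.14, adjusted p = 1.35e-05), the efflux carrier PIN2 (log2 -1.77 ± 0.43, adjusted p = 0.0042) and the auxin synthesis gene YUC3 (log2 -3.9 ± 0.64, adjusted p = 4.82e-05) were lowered. The raised gene, YUC9, lost its call without WT mock 3, and a second auxin gene was raised without WT MG 2.

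Genes of nutrient and water transport were called in both directions. Of 31 iron genes 7 were lowered and 1 was raised, with a median of 0.37. The parts of the list differed. Of 14 uptake and transport genes 5 were lowered and 0 raised, with a median of -0.65. Of 11 regulator and signal genes 1 was lowered and 0 raised, with a median of 1.02. The regulator and signal list summed to 470.3 to 581.9 CPM in WT MG libraries and 197.6 to 368.4 CPM in WT mock libraries. The number lowered on the whole iron list depended on single libraries: it was 1 without WT mock 1, 3 without WT MG 1 and 2 without WT MG 3. The number raised was 4 with only the compared groups, with 7 lowered, and 6 without the 7 libraries low in CCA1, with 10 lowered. IRT2, an iron transporter of the root epidermis, had 0, 0.0618 and 0.0425 CPM in WT MG libraries, against 4.71, 5.33 and 4.05 CPM in WT mock libraries (log2 -6.92 ± 0.71, adjusted p = 3.18e-08). F6H1, which makes the coumarin scopoletin, had 218, 156 and 112 CPM in WT MG libraries, against 28, 19 and 14.7 CPM in WT mock libraries (log2 2.98 ± 0.3, adjusted p = 1.87e-08). The groups did not overlap in either gene. Of 16 phosphate genes 2 were raised and 1 was lowered, with 0 raised without WT mock 1, WT mock 2 or WT MG 2, and 1 without WT mock 3, but 4 without the 7 libraries low in CCA1. PHO1, which loads phosphate into the xylem, had 15.8, 16.9 and 19.2 CPM in WT MG libraries, against 57.9, 42.9 and 64.3 CPM in WT mock libraries (log2 -1.67 ± 0.29, adjusted p = 0.000103). Of 14 nitrate and nitrogen genes 1 was raised and 2 lowered, with a median of -0.02. The xylem loader NRT1.5 had 31, 24.3 and 26.2 CPM in WT MG libraries, against 165, 106 and 209.6 CPM in WT mock libraries (log2 -2.56 ± 0.54, adjusted p = 0.0012), and the repressor gene HRS1 fell (log2 -2.5 ± 0.3, adjusted p = 4.03e-07). The raised nitrogen gene lost its call without WT mock 3 or WT MG 2. Of 26 ion and water transport genes 1 was raised and 5 were lowered, with a median of -0.39. The lowered ones included the aquaporins TIP2;3 (-3.67 ± 0.74), TIP4;1 (-2.6 ± 0.45) and PIP2;4 (-2.41 ± 0.46) and the potassium channel SKOR (-2.22 ± 0.57), and the calcium exchanger CAX3 was raised (1.38 ± 0.32).

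Markers of root hair cells were lowered. Of 10 root hair markers 9 were lowered and none was raised, with a median log2 change of -5.49, against 0 over all genes tested. EXPA18, an expansin of growing root hairs, had 0.0476, 0.185 and 0 CPM in WT MG libraries, against 11.2, 15.8 and 11.2 CPM in WT mock libraries (log2 -7.45 ± 0.87, adjusted p = 2.63e-07). COBL9, which is needed for hair elongation, had 0.143, 0.0618 and 0.127 CPM in WT MG libraries, against 6.5, 7.78 and 3.76 CPM in WT mock libraries (log2 -5.65 ± 0.66, adjusted p = 2.61e-07). EXPA7 had 0.571, 0.371 and 0.0425 CPM in WT MG libraries, against 11.5, 15.8 and 11.7 CPM in WT mock libraries (log2 -5.33 ± 0.72, adjusted p = 2.70e-06). Every WT MG library was far under every WT mock library in these genes. The proline-rich wall protein gene PRP3 had 0.143, 0.124 and 0.0425 CPM in WT MG libraries, against 24.1, 45.7 and 17.81 CPM in WT mock libraries (log2 -8.12 ± 0.88, adjusted p = 1.32e-07), and PRP1 had 0 CPM in all 3 WT MG libraries, against 4.53, 11.3 and 1.9 CPM in WT mock libraries, at least 39-fold lower on the 3-count floor. LRX1 (-5.18 ± 0.76) and MRH6 (-6.27 ± 0.95) fell alike. The summed level of the 10 markers lay between 3.78 and 4.33 CPM in WT MG libraries and between 58.9 and 121 CPM in WT mock libraries. In whole seedlings fewer cells of a type and less RNA per cell cannot be told apart.

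Markers of the endodermis, the barrier layer around the vascular cylinder, were lowered too. Of 10 markers 6 were lowered and none raised, with a median of -1.63. CASP1, a membrane scaffold of the Casparian strip, had 9.8, 9.83 and 9.89 CPM in WT MG libraries, against 28.7, 28.7 and 34.5 CPM in WT mock libraries (log2 -1.64 ± 0.34, adjusted p = 0.000985). The peroxidase gene PER64, which acts in lignification of the strip, was lowered (3.59 ± 1.52 CPM in WT MG libraries and 20.9 ± 3.29 CPM in WT mock libraries, SD, n = 3 each; log2 -2.53 ± 0.38, adjusted p = 1.40e-05). CASP2 (-1.61 ± 0.41), CASP4 (-2.09 ± 0.4) and CASP5 (-2.45 ± 0.52) fell with it. The summed endodermal level was 67.0 to 82.0 CPM in WT MG libraries and 129.7 to 134.5 CPM in WT mock libraries. Of 6 root cap and root tip markers 1 was lowered, with a median of -1.46 and sums of 1.11 to 1.78 CPM in WT MG libraries and 3.21 to 3.76 CPM in WT mock libraries. That 1 gene, BRN2, lost its call whichever of the 6 libraries was left out, and the list had 0 lowered genes without WT mock 2, WT MG 2 or WT MG 3 and 1 in the other cases. None of the 9 vascular markers was called by edgeR or DESeq2 or had an unadjusted p under 0.05, with a median of -0.05 and sums of 463 to 698 CPM in WT MG libraries and 478 to 573 CPM in WT mock libraries. The same held for the 9 shoot epidermis markers, with sums of 158 to 262 CPM in WT MG libraries and 144 to 181 CPM in WT mock libraries. The part that a changed share of root in the samples plays in the decreases was not tested.

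**Figure D2:**
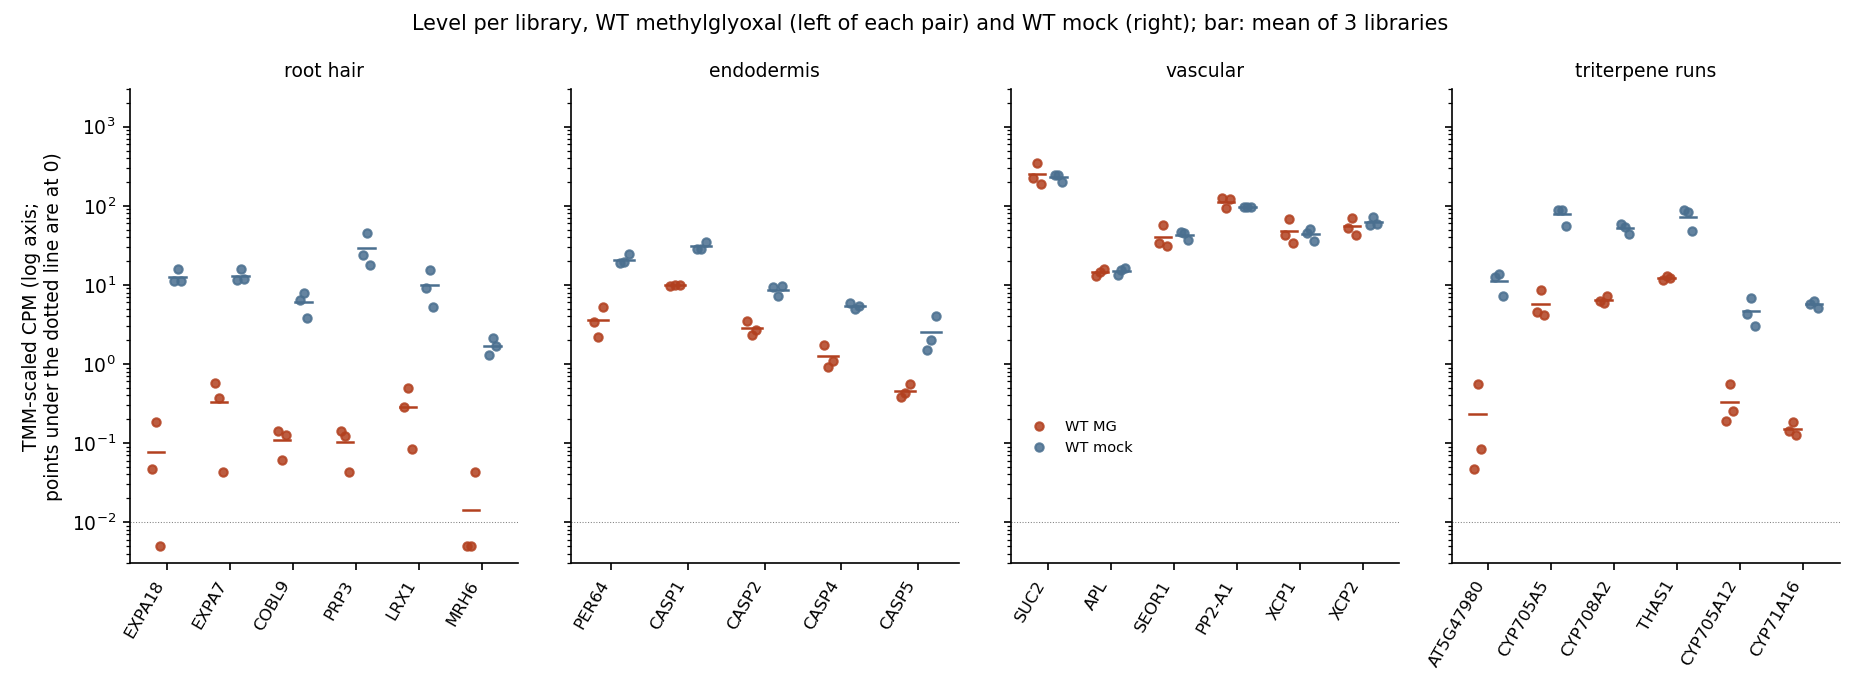
Level of genes of 4 groups in each library, in CPM on a log axis with points under the dotted line at 0, with WT MG libraries left of WT mock libraries and a bar at each mean. Root hair genes such as COBL9 (0.0618 to 0.143 CPM in WT MG, 3.76 to 7.78 CPM in WT mock) and the triterpene genes show no overlap between the groups, nor do the endodermal genes, while the vascular genes overlap.

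Suberin genes were raised in part. Of 19 phenylpropanoid and suberin genes 6 were raised and none lowered, with a median of 0.87. GPAT5, an acyltransferase of suberin monomer synthesis, had 39.5, 58.2 and 39.4 CPM in WT MG libraries, against 10.3, 9.96 and 9.54 CPM in WT mock libraries (log2 2.2 ± 0.31, adjusted p = 6.17e-06). CYP86B1, a fatty acid hydroxylase (1.59 ± 0.25), and the transporters ABCG6 (2.06 ± 0.34) and ABCG20 (1.17 ± 0.24) were raised. Flavonoid genes had 4 raised and none lowered of 15, with a median of 0.53, but 1 without WT MG 2, WT mock 1 or WT mock 3. PAP1, an activator of anthocyanin synthesis, had 4.57, 37.6 and 2.84 CPM in WT MG libraries, against 0.229, 1.6 and 0.127 CPM in WT mock libraries, with WT MG 2 far above the other WT MG libraries, and its call was lost when only the compared groups entered the fit. Of 20 cell wall genes of the expansin, xyloglucan hydrolase and cellulose synthase families 1 was raised and 1 lowered, with 0 lowered without WT MG 3 and 2 without WT MG 2.

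Some called genes lay side by side. Among 26712 protein-coding genes in map order, 21 runs of at least 3 neighbours were called in 1 direction, 16 of them raised with 49 genes and 5 lowered with 16 genes. The 2 lowered runs on chromosome 5 were triterpene gene clusters. In the thalianol cluster the synthase gene THAS1 was at 12.3 ± 0.687 CPM in WT MG libraries and 72.7 ± 21.7 CPM in WT mock libraries, CYP708A2 at 6.44 ± 0.667 CPM in WT MG libraries and 52.3 ± 7.17 CPM in WT mock libraries and CYP705A5 at 5.74 ± 2.43 CPM in WT MG libraries and 77.9 ± 19.9 CPM in WT mock libraries (SD, n = 3 each). Their log2 changes were -2.56 ± 0.43, -3.02 ± 0.44 and -3.77 ± 0.42, and that of the adjoining AT5G47980 was -5.74 ± 0.56. In the marneral cluster CYP71A16 changed by -5.2 ± 0.45 and CYP705A12 by -3.85 ± 0.49, while the synthase gene MRN1 (-2.42 ± 0.74) lost its call when any 1 library except WT mock 3 was left out. A raised run on chromosome 3 held NAC050, NAC052 and NAC053, at 0.52 ± 0.16, 0.73 ± 0.17 and 1.4 ± 0.23, of which NAC050 lost its call whichever of the 6 libraries was left out.

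9 of the 46 lists held no gene called by edgeR, and DESeq2 called none of their members either. Among them were photosynthesis with 29 genes tested and a median of 0.24, the circadian clock with 16 and 0.18, chlorophyll metabolism with 15 and 0.10, cytosolic ribosomal proteins with 16 and -0.04, and histone H3K4 methylation with 15 and -0.01. 1 clock gene, 1 chlorophyll gene and 1 DNA damage gene had an unadjusted p under 0.05, and no member of the other 6 lists did. The summed level of the photosynthesis genes was highest in WT MG 2, at 248500 CPM, over a range from 136000 CPM in WT MG libraries, and it was 137900 to 175300 CPM in WT mock libraries. Of 30 cell cycle genes 1 was lowered, CYCB1;3 (log2 -0.68 ± 0.19, adjusted p = 0.0155), and that call was lost without WT mock 1 or WT MG 3. The list had a median of -0.24, with 28 negative log2 changes, where 10362 of all 20748 genes tested were negative. Its 17 mitosis genes summed to 127.8 to 157.1 CPM in WT MG libraries and 176.8 to 186.5 CPM in WT mock libraries. Its 13 replication genes overlapped, at 245.6 to 375.4 CPM in WT MG libraries and 267.5 to 275.4 CPM in WT mock libraries. The 12 DNA damage genes had no call and a median of -0.19, and 1 was lowered without WT MG 2.

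**Figure D3:**
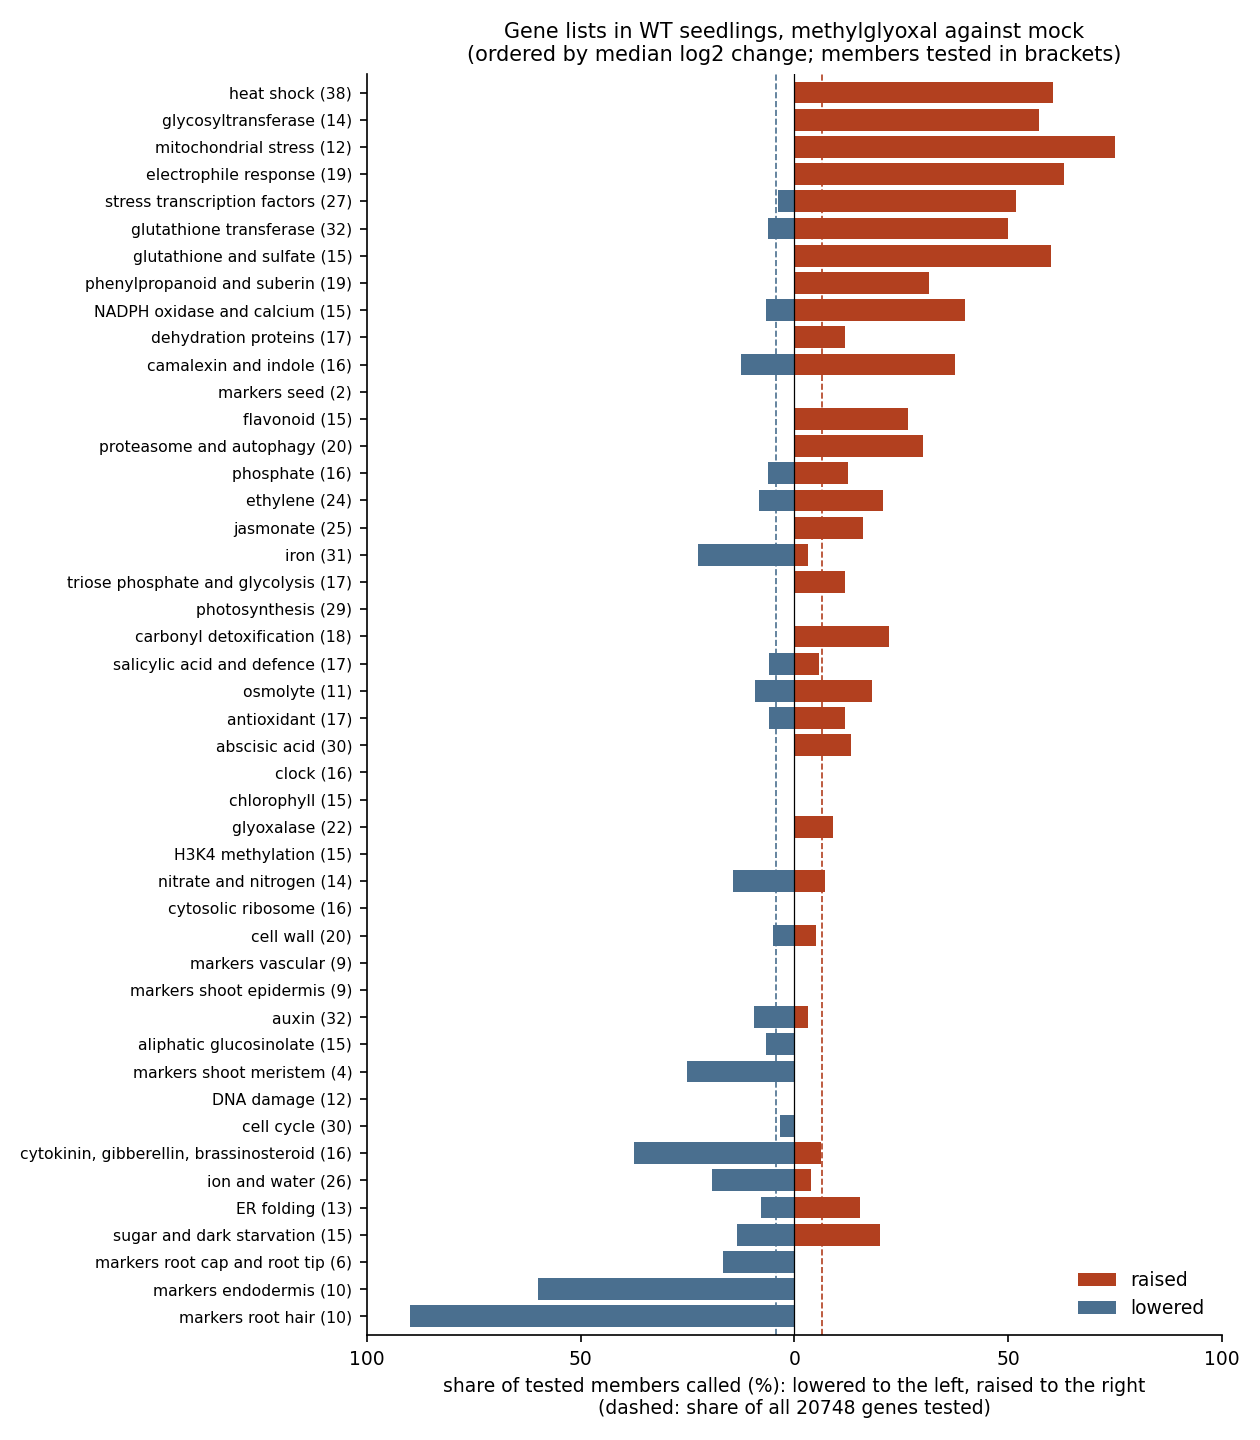
Share of the tested members of each of 46 gene lists that were raised (to the right) or lowered (to the left) by MG in WT seedlings, in percent, ordered by the median log2 change, with dashed lines at the shares over all genes tested (6.42% raised, 4.26% lowered). Heat shock, mitochondrial stress, electrophile and glycosyltransferase lists reach far to the right, and root hair and endodermis markers far to the left. Lists and members were chosen with earlier results of these data known, so the distance from the dashed lines is descriptive only.

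The same treatment in the other genotypes was measured in separate libraries, each set against its own mock. Of the 1331 genes raised in WT, 1026 (77.1%) were raised in glyI2, where 14.4% of all genes tested were. MG changed 29.2% of all genes tested in glyI2, 9.79% in OE1 and 8.82% in OE5, in either direction. In OE1 982 of the raised genes (73.8%, background 5.85%) and in OE5 891 (66.9%, background 4.74%) were raised. Of the 884 genes lowered in WT, 730 (82.6%, background 14.8%) were lowered in glyI2, 672 (76%, background 3.94%) in OE1 and 696 (78.7%, background 4.09%) in OE5. The median log2 change of the raised genes was 1.54 in WT, on which they were chosen, and 1.59, 1.38 and 1.25 in glyI2, OE1 and OE5. That of the lowered genes was -2.36 in WT and -2.28, -2.06 and -2.17 in the same lines. In glyI2 18 of the raised and 16 of the lowered genes were called in the opposite direction, and in OE1 and OE5 none. Of the 10 root hair markers 9 were lowered and 1 raised in glyI2, 8 were lowered in OE1 and 10 in OE5. The raised one was RHS2, at log2 -0.13 in WT and 2.93 in glyI2. GLX2-1, a gene of the glyoxalase II family taken here as the GLYII4 of the labels, averaged 300.0 ± 74.3 CPM in OE1 MG libraries and 31 ± 4.08 CPM in OE1 mock libraries (SD, n = 3 each). In OE5 it averaged 265 ± 91 CPM in OE5 MG libraries and 32.1 ± 5.99 CPM in OE5 mock libraries. AT1G08110, the gene listed as GLYI2, averaged 25.9 ± 2.81 CPM in OE1 MG libraries and 28.1 ± 6.98 CPM in OE1 mock libraries. In OE5 it averaged 48.9 ± 4.3 CPM in OE5 MG libraries and 51.3 ± 6.72 CPM in OE5 mock libraries, and the means of both lines were under those of WT, 58.9 ± 11.3 CPM in WT MG libraries and 61.3 ± 8.23 CPM in WT mock libraries. In the libraries labelled 35S::GLYI2 that gene was thus not above its WT level.

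Differences between the WT response and that of the other lines were tested directly. The log2 change of WT differed from that of glyI2 for 823 genes, 3.97% of those tested, being more positive in WT for 311 (1.5%) and more negative for 512 (2.47%). The count was 514 without WT mock 3 or without WT MG 2, 534 without WT mock 1, 1110 without the 7 libraries low in CCA1 and 1212 in DESeq2. In the fit over all groups 211 of the genes raised in WT differed, and 92 of those lowered. CYP71A12 rose less in glyI2 (log2 5.44 ± 0.61, adjusted p = 5.12e-08), as did CYP94B3 (log2 1.08 ± 0.4, adjusted p = 0.0428), and F6H1 was not called there (log2 0.02 ± 0.28, adjusted p = 0.973). The differences of these 3, WT minus glyI2, were log2 3.28 ± 0.79, adjusted p = 0.0145 for CYP71A12, log2 4.72 ± 0.57, adjusted p = 5.14e-06 for CYP94B3, and log2 2.96 ± 0.4, adjusted p = 2.62e-05 for F6H1. The opposite order held for GSTU9, at 1.93 in WT and 5.03 in glyI2 (log2 -3.1 ± 0.29, adjusted p = 9.95e-08), and for ANAC013 (log2 -2.31 ± 0.35, adjusted p = 0.000103), OM66 (log2 -2.96 ± 0.63, adjusted p = 0.00496) and ZAT11 (log2 -3.67 ± 0.48, adjusted p = 1.54e-05). Of the 12 mitochondrial stress genes 7 had a more negative log2 change in WT. Against OE1 and against OE5 1 gene differed in each case, 0.00482% of those tested. It was GLX2-1, at log2 -3.15 ± 0.36, adjusted p = 2.82e-05 for WT minus OE1 and log2 -2.93 ± 0.36, adjusted p = 0.000123 for WT minus OE5.

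**Figure D4:**
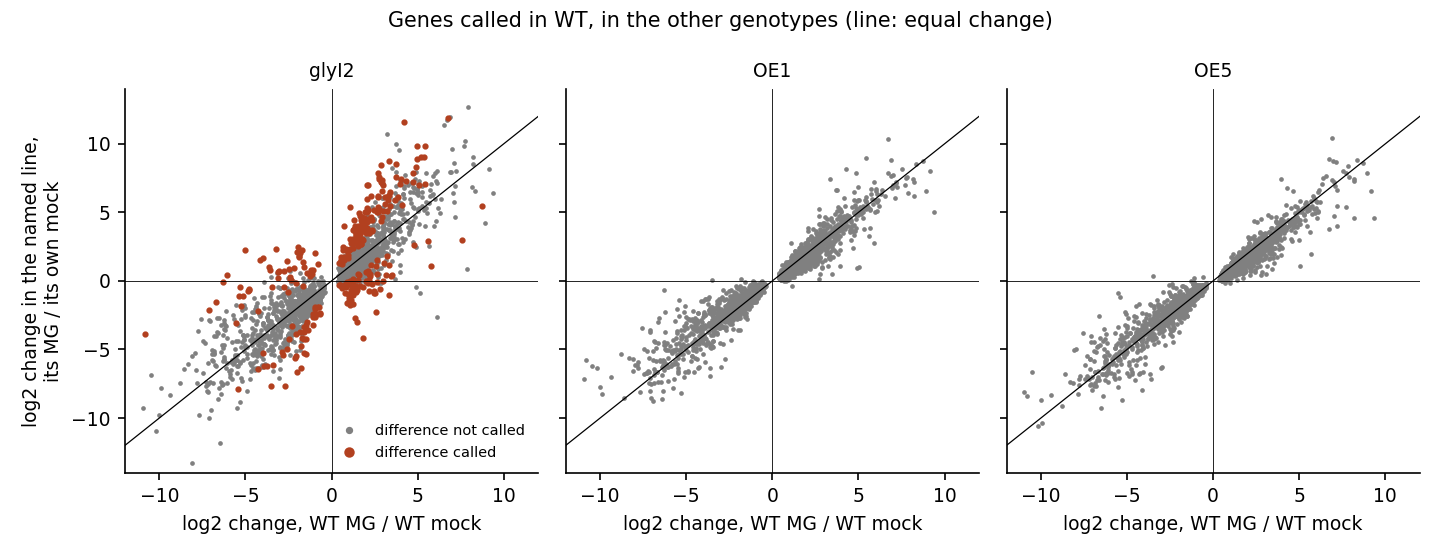
Log2 change (MG over mock) of the 2215 genes called in WT, in WT on the horizontal axis and in glyI2, OE1 and OE5 on the vertical axes, with a line of equal change and genes whose difference was called in red. Most points follow the line in all panels, and red points occur in glyI2, where 211 raised and 92 lowered genes differed, but not among these genes in OE1 or OE5.

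MG and salt were compared by a direct test of WT MG against WT NaCl libraries. It called 2430 genes (11.7%), 1268 higher (6.11%) and 1162 lower (5.6%) in WT MG. WT NaCl against WT mock called 1478 genes (7.12%), 920 higher (4.43%) and 558 lower (2.69%). Both treatments were set against the same WT mock libraries, so their changes are given side by side only. Of the 17 dehydration protein genes 2 were raised and none lowered by MG, with a median of 0.77, and 12 were raised and none lowered by NaCl, with a median of 2.35. Between WT MG and WT NaCl directly, 10 of them were lower in WT MG and none was higher. KIN1, a cold- and salt-inducible gene, averaged 1.63 ± 1.46 CPM in WT MG, 273 ± 80.1 CPM in WT NaCl and 4.36 ± 1.83 CPM in WT mock libraries (SD, n = 3 each), and WT MG was lower than WT NaCl (log2 -7.44 ± 0.85, adjusted p = 2.85e-07). RD29A averaged 9.8 ± 3.66 CPM in WT MG, 86.3 ± 26.49 CPM in WT NaCl and 8.48 ± 3.25 CPM in WT mock libraries, and WT MG was again lower (log2 -3.14 ± 0.6, adjusted p = 0.000435). LTI30, in contrast, averaged 80.4 ± 16.1 CPM in WT MG, 77.1 ± 18.5 CPM in WT NaCl and 18.8 ± 5.85 CPM in WT mock libraries, and a difference between WT MG and WT NaCl was not called (log2 0.06 ± 0.31, adjusted p = 0.945). The 10 root hair markers had a median log2 change of 0.05 in WT NaCl against WT mock, and 9 of 10 were lower in WT MG than in WT NaCl. Of 38 heat shock genes 21 were higher and 2 lower in WT MG than in WT NaCl, and of 32 glutathione transferases 12 were higher and 2 lower. CYP81D8 averaged 183 ± 25.1 CPM in WT MG, 17.1 ± 3.18 CPM in WT NaCl and 4.17 ± 0.465 CPM in WT mock libraries and was higher in WT MG (log2 3.42 ± 0.35, adjusted p = 3.61e-08). HSFA2 averaged 34.3 ± 19.2 CPM in WT MG, 1.68 ± 0.772 CPM in WT NaCl and 0.671 ± 0.0778 CPM in WT mock libraries and was also higher in WT MG (log2 4.35 ± 0.61, adjusted p = 7.21e-06).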

How the data were processed

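Poly(A) RNA of whole seedlings was sequenced on a BGISEQ-500 instrument, per the labels' protocols. The authors deposited, per library, raw read counts and FPKM for 32678 genes. HISAT2 2.0.4, HTSeq and the TAIR10 build are named in the submitters' processing notes; the strand setting and the handling of reads with several matches were not given in the sources used here. Whether reads of overlapping and antisense genes were told apart is therefore not known here. Deposited counts were the basis of every test, and deposited FPKM gave per-length levels, their ranks and relative gene lengths. Gene names came from a RefSeq table, which matched 31912 identifiers and left 766 unmatched.

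All 36 RNA libraries entered 1 fit in edgeR 4.0.16 (R 4.3.3; filterByExpr, TMM scaling, robust quasi-likelihood F tests, no replicate term), with Benjamini-Hochberg adjustment over 20748 genes and a threshold of 0.05. The biological coefficient of variation was 28.3%. Differences between genotypes were interaction contrasts. The fit was tested on simulated data. DESeq2 1.42.0, other scaling, no filter, other sample sets, a replicate block and leaving out each library were tried. The 46 lists hold 852 genes, of which 818 were tested. Members and lists were chosen with earlier results of these data known. Genes named in the text are a selection of the 15 largest called changes in each direction without overlap and with average expression at or above 1 log2 CPM, the 6 lowest p and the first 3 members of each list, every glyoxalase gene, members of neighbour runs of 3 or more, and the 5 lowest p of each interaction. RHS2 was named outside this choice, as the root hair marker raised in glyI2. The 3-count floors cover counting error only. 3 chromatin samples were not analysed here.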

Additional observations from a re-analysis of the deposited data

Results flagged for a closer look

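Differences between the MG response of WT and that of another genotype were called in an interaction test across all genes (edgeR, adjusted p under 0.05). Against glyI2 823 genes differed. Given here are the 5 with the lowest adjusted p and those of the 30 genes with the largest changes in WT that differed. CYP71A12 had a difference of 3.28 on the log2 scale, with a change of 8.72 in WT and 5.44 in glyI2. For AT1G26390 the difference was 4.54 (7.55 in WT, 3.02 in glyI2). DOX1, an α-dioxygenase, differed by 4.21 (0.73 in WT, not called, and -3.48 in glyI2). GSTU9 differed by -3.10 (1.93 in WT, 5.03 in glyI2), AT5G43040 by -4.33 (-0.35 and 3.98), AT5G40880 by -3.01 (0.43 and 3.44) and AT1G07520 by -2.68 (0.07 and 2.75). The 5 with the lowest adjusted p were DOX1, GSTU9 and these 3 loci. EXPA17, at 0 reads in all WT MG libraries, had a fitted difference of -6.97, with -10.81 in WT and -3.84 in glyI2; the WT value and the difference depend on the fit's prior count and are no bounds. Against OE1 and against OE5 the number of differing genes was 1, the glyoxalase II family gene GLX2-1, with differences of -3.15 and -2.93. The groups hold 3 libraries each, so single libraries were not screened as outliers.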

How the results depend on the processing

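No named gene changed the sign of a called value under the alternatives tried. The count of genes called in WT, 2215, stayed within 1.5 times under each alternative, from 1521 at an adjusted p under 0.01 and 1721 without WT mock 1 to 2662 with the replicate number as a block, with 2395 in DESeq2, 1886 with only the compared groups and 2136 without the filter. Of 247 called genes named, 186 kept their call under every alternative, 59 lost it when 1 library was left out (37 without WT MG 2), 29 with only the compared groups and 3 in DESeq2. Of 92 list counts, 36 moved by over 1.5 times in at least 1 alternative. The replicate block gave 7 raised jasmonate genes (4), 4 raised phosphate genes (2), 2 raised iron genes (1), 2 raised nitrogen genes (1), 4 lowered sugar and starvation genes (2) and 3 lowered endoplasmic reticulum genes (1), with the count of the report in brackets. The block with only the compared groups gave 11 raised and 7 lowered iron genes (1 and 7), 10 raised suberin genes (6), 8 lowered ion and water genes (5) and 4 raised osmolyte genes (2). The difference between WT and glyI2 was called for 514 to 817 genes when 1 library was left out and for 1447 with the replicate block, against 823. With only the compared groups the counts were 1188 for WT MG against WT NaCl (2430 in the fit over all groups), 1139 for OE5 MG against OE5 mock (1831) and 0 for WT against OE5 (1); such fits hold fewer samples. Replicates share a number only. Deviations of same-numbered WT MG and WT mock libraries had correlations of 0.09, 0.27 and 0.44. Pairs with different numbers had correlations of 0.16, -0.27, -0.17, -0.26, 0.08 and -0.37. Each WT MG library correlated best with the WT mock library of its own number. Of the WT mock libraries only WT mock 1 correlated better with another number, WT MG 2 (0.16). Whether same-numbered libraries form pairs was not tested, and the main fit held no replicate term. The block ended no call among the named genes. Counts below about 3 reads per library limit what can be said of silent genes.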
